A study of Mus musculus with 3 samples.

Results

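The immunity-related GTPases (IRGs) of the mouse were followed in bone marrow derived macrophages (BMDMs) treated with purified lipoproteins of *Borrelia burgdorferi* (*Bb*LP). The 7 genes described are the rows of the count matrices named *Irgm1*, *Irgm2*, *Igtp*, *Iigp1*, *Ifi47*, *Tgtp1* and *Tgtp2*, of 32285 rows in all, and each of the 7 had counts. Single-cell RNA was sequenced in 3 libraries: untreated BMDMs that received PBS and were collected at 4 hours (Ctrl), and BMDMs collected after 1 hour (LP1) and after 4 hours (LP4) with *Bb*LP at 1 µg/mL. All cells came from the marrow of female C3H/HeN mice aged 6 to 8 weeks. Each condition is 1 library, made from a pool of 3 wells, and no test between conditions was possible. A cell was kept if it had over 500 UMIs, over 500 genes and less than 5% of its UMIs from mitochondrial genes, which left 6071 Ctrl, 5065 LP1 and 4670 LP4 cells with sums of 35688939, 52475723 and 61402275 UMIs. The libraries shared 4 to 10 barcode sequences in each pair, and without these the median log2 ratio of the 7 genes in LP4 over Ctrl was 3.60.

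IRGs are GTPases of cell-autonomous immunity that macrophages make in response to interferons. They act at membranes and are best known for the vacuoles of *Toxoplasma* and *Chlamydia*, where the effector proteins load onto the vacuole membrane and disrupt it. The family has regulatory members, named GMS proteins after the letters of their nucleotide-binding motif and encoded by *Irgm1*, *Irgm2* and *Igtp* (also called Irgm3), which sit on host membranes and hold the effectors inactive. The effectors, named GKS proteins, include those encoded by *Iigp1* (Irga6), *Ifi47* (Irgd) and the pair *Tgtp1* and *Tgtp2* (Irgb6). Interferon-γ acts on such genes through promoter sequences called GAS elements, though not through these alone. Type I interferon acts mainly through sequences called ISRE elements.

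On the GENCODE vM21 annotation of GRCm38, the build also called mm10, 6 of the 7 genes lie on chromosome 11. *Irgm1* (chr11:48861968-48871683, minus strand), *Tgtp1* (chr11:48985327-48994172, minus), *Tgtp2* (chr11:49057194-49064206, minus) and *Ifi47* (chr11:49076587-49096974, plus) form 1 stretch, and *Igtp* (chr11:58199556-58207591, plus) and *Irgm2* (chr11:58199618-58222782, plus) overlap each other on the same strand in another. The seventh, *Iigp1*, lies on another chromosome.

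To show what the promoters of the family hold, the 120 bases before the RefSeq start of transcription are printed for the 6 members found among RefSeq promoters of GRCm38.p6. Capitals mark each match, on the strand shown, to an ISRE core (GAAA, 2 bases of any kind, GAAA) or a GAS element (TTC, 3 bases of any kind, GAA). The bases are those of the reference mouse and not of C3H/HeN.
Irgm1, chr11:48871421-48871540, minus strand: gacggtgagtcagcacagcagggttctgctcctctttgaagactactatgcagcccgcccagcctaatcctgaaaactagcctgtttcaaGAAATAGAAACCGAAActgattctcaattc
Irgm2, chr11:58214857-58214976, plus strand: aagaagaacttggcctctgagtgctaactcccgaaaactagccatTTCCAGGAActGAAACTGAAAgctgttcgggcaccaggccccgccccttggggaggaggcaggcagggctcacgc
Igtp, chr11:58199436-58199555, plus strand: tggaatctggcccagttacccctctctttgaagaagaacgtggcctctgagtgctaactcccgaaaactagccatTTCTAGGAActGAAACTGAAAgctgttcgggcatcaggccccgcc
Ifi47, chr11:49076467-49076586, plus strand: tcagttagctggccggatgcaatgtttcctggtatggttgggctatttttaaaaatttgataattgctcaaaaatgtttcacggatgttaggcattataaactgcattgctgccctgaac
Tgtp1, chr11:48992247-48992366, minus strand: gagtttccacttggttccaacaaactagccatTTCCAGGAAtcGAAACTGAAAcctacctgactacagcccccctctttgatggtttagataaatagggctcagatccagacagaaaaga
Tgtp2, chr11:49064213-49064332, minus strand: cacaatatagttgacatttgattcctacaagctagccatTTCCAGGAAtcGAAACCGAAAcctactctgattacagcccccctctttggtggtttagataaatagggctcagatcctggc

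The promoters of *Irgm2*, *Igtp*, *Tgtp1* and *Tgtp2* held a GAS element followed at once by an ISRE core, with the first base of the core 11 bases after the first base of the GAS element. The GAS element began 75 bases before the start in *Irgm2*, 45 in *Igtp*, 88 in *Tgtp1* and 81 in *Tgtp2*. *Irgm1* held 2 overlapping ISRE cores and no GAS element, and *Ifi47* held neither. Both strands were searched, from 250 bases before to 50 after the start. In that window the ISRE core was found in 5 of 6 members against 3.44% of 32851 promoters, and the GAS element in 4 of 6 against 8.30%. Both together were found in 0.454% of promoters. The ISRE core was not particular to the members. Of the 5 guanylate-binding protein genes found among these promoters, 5 held an ISRE core and 2 a GAS element in the same window. The arrangement as 1 run, which is the GAS element, 2 bases of any kind and the ISRE core, was found in 5 promoters of all 32851, or 0.0152%, which were the 4 members and *Gm12185*, a further row of the IRG family. The letters were taken from the members themselves, and family members share sequence: the 60 bases around the arrangement were equal at 58 positions between *Irgm2* and *Igtp*, at 46 between *Tgtp1* and *Tgtp2* and at 38 to 42 between the 2 pairs. A match of letters is a description of the sequence and not evidence that a factor was bound.

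All 7 IRG mRNAs were higher at 4 hours of *Bb*LP and none was at least 2-fold higher at 1 hour. Ctrl was collected at 4 hours, so each ratio of LP1 over Ctrl holds both treatment and time of collection, which cannot be told apart. Summed over the family, there were 43.5 UMIs per 1000000 UMIs of the library (CPM) in Ctrl, 39.0 at 1 hour and 427 at 4 hours. A UMI is a molecular tag that counts 1 captured transcript, and the sums rest on 1552, 2049 and 26211 UMIs, with exact Poisson 95% intervals of 41.3 to 45.7, 37.4 to 40.8 and 422 to 432 CPM. The family was thus 9.82-fold higher in LP4 than in Ctrl, a log2 ratio of 3.30 (3.22 to 3.37), and stood at a log2 ratio of -0.16 (-0.25 to -0.06) in LP1. These intervals, and all others given, cover counting error only and not the spread between cultures. Those of levels and ratios also take each UMI as independent. Between cells at equal depth, the variance of the summed members was 1.51 times the mean in Ctrl, 2.19 in LP1 and 1.36 in LP4. Independent counts have a ratio of 1, so intervals of levels and ratios are too narrow for the spread between cells. Whether LP1 would still lie below Ctrl with wider intervals was not tested. A higher level in LP4 may be more RNA in each cell or more cells with the RNA, which a sum over cells cannot tell apart and the shares of cells given further on describe.

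Genes were compared where the pair of libraries held 20 or more UMIs of them. By this rule 7 of 7 members were at least 2-fold higher in LP4 than in Ctrl, where 11.6% of 14361 genes were at least 2-fold higher and 15.6% at least 2-fold lower. The median log2 ratio was 3.60 over the members and -0.15 over all of those genes. Between LP4 and LP1, 7 of 7 were at least 2-fold higher beside 10.9% of 14506 genes, with a median of 3.58 against -0.10. LP4 is common to both comparisons. Between LP1 and Ctrl, 0 of the 6 members with enough UMIs were at least 2-fold higher beside 1.45% of 14085 genes, and 1 was at least 2-fold lower beside 3.15%. The median at 1 hour was -0.18 against -0.04.

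**Figure D1:**
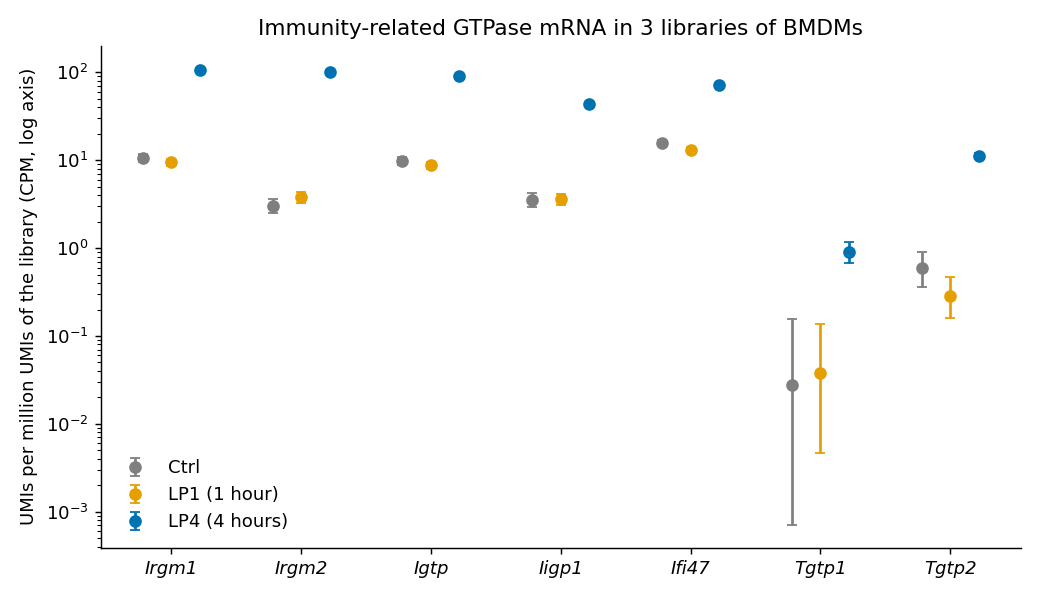
CPM of each member (vertical axis, logarithmic) in Ctrl, LP1 and LP4, with exact Poisson 95% intervals. LP4 lies above both other libraries for every gene, from 0.896 CPM for *Tgtp1* to 107 CPM for *Irgm1*. Ctrl and LP1 lie within 2-fold of each other for every gene but *Tgtp2*, at 0.588 CPM in Ctrl and 0.286 in LP1.

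Among the regulatory members, *Irgm1*, whose product is tied to autophagy and to the survival of macrophages, had 10.7 CPM in Ctrl, 9.41 at 1 hour and 107 at 4 hours. Its log2 ratio in LP4 over Ctrl was 3.32 (3.17 to 3.48). *Irgm2* had 3.03 CPM in Ctrl, 3.77 at 1 hour and 101 at 4 hours. It was 33.4-fold higher in LP4 than in Ctrl, at a log2 ratio of 5.06 (4.79 to 5.35), an interval that lies above those of *Irgm1*, *Igtp*, *Iigp1* and *Ifi47*. *Igtp*, which overlaps *Irgm2* and holds the same arrangement of elements, had 9.89 CPM in Ctrl, 8.71 at 1 hour and 91.0 at 4 hours, with a log2 ratio of 3.20 (3.05 to 3.36). These 2 genes, equal at 58 of the 60 bases around the arrangement, had log2 ratios of 5.06 and 3.20. In LP4 their levels were 101 and 91.0 CPM and in Ctrl 3.03 and 9.89. Each was searched at 1 RefSeq start, which for *Irgm2* lies inside the annotated gene, and other starts were not searched. Whether the promoters bear on these ratios was not tested. Counts were not divided by transcript length, since each UMI comes from 1 end of a transcript.

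Among the effectors, *Iigp1* (chr18:60376027-60392634, plus strand), whose product is the best studied of the GTPases that coat vacuoles, had 3.56 CPM in Ctrl, 3.60 at 1 hour and 43.0 at 4 hours. Its log2 ratio in LP4 over Ctrl was 3.60 (3.34 to 3.86). *Ifi47* had 15.7 CPM in Ctrl, 13.2 at 1 hour and 72.5 at 4 hours. Its log2 ratio of 2.21 (2.08 to 2.34) had an interval below those of all 6 other members. It was also below Ctrl at 1 hour by less than 2-fold, with a log2 ratio of -0.25 (-0.41 to -0.08). *Ifi47* is the member whose printed promoter held neither element, at the 1 RefSeq start that was searched. The gene has 5 annotated transcripts, and other starts were not searched. Whether the promoter bears on its ratio was not tested.

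*Tgtp2* had 21 UMIs in Ctrl, 15 at 1 hour and 682 at 4 hours, or 0.588, 0.286 and 11.1 CPM. Its log2 ratio was 4.24 (3.61 to 4.94) in LP4 over Ctrl and -1.04 (-2.10 to -0.02) in LP1 over Ctrl, and it was the member counted as lower at 1 hour. That count rested on the limit: with TMM scaling the 1-hour log2 ratio was -0.97. *Tgtp1* had 1, 2 and 55 UMIs, or 0.0280, 0.0381 and 0.896 CPM, with a log2 ratio of 5.00 (2.46 to 10.33) in LP4 over Ctrl and an interval of -3.82 to 6.33 at 1 hour. Levels of this pair are uncertain. Of the 411 words of 90 bases in the last 500 bases of each transcript, where reads of such libraries mostly fall, all 411 occur in both genes, so most reads cannot be assigned to 1 of them. Over whole transcripts 85.2% of the words of *Tgtp1* and 82.3% of those of *Tgtp2* occur in another gene. The genes that share them are the other of the pair and *Gm12185*, which overlaps *Tgtp1* on the same strand. Summed, the pair had 22, 17 and 737 UMIs and a log2 ratio of 4.28 (3.67 to 4.97) in LP4 over Ctrl. In LP1 over Ctrl the summed pair was at -0.93 (-1.93 to 0.05) and so was not 2-fold lower. The other 5 members shared at most 6.67% of their words, *Igtp* with *Irgm2*, and none in the last 500 bases.

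**Figure D2:**
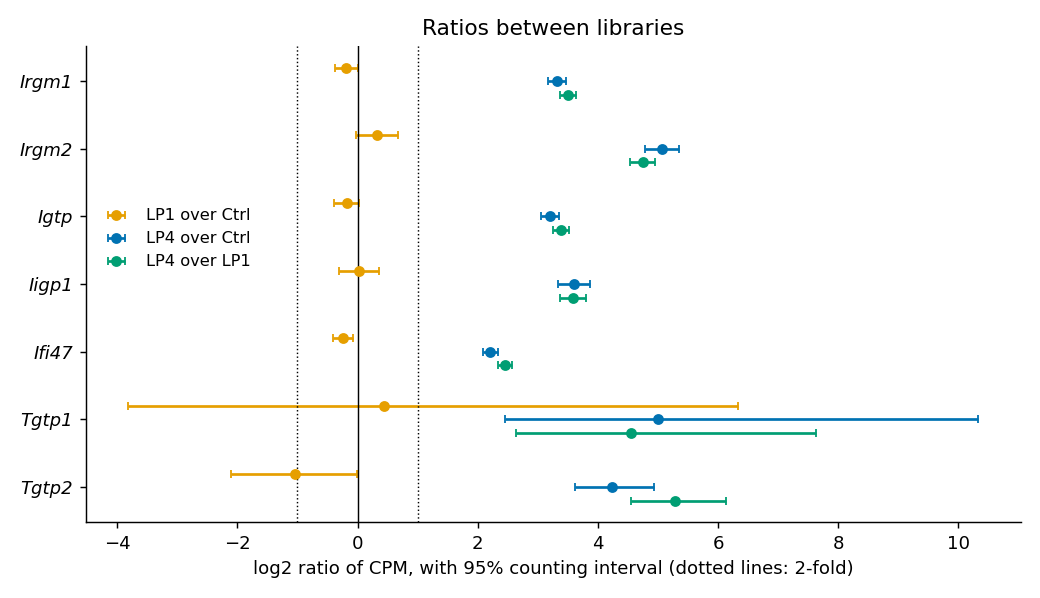
Log2 ratio of CPM for each member in LP1 over Ctrl, LP4 over Ctrl and LP4 over LP1, with exact conditional binomial 95% intervals and dotted lines at 2-fold. The LP4 ratios run from 2.21 for *Ifi47* to 5.06 for *Irgm2* over Ctrl, and the widest intervals belong to *Tgtp1*, which had 1 UMI in Ctrl.

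The make-up of the family differed between Ctrl and LP4. *Ifi47* gave 36.1% of the family's UMIs in Ctrl and 17.0% in LP4, and *Irgm2* gave 6.96% and 23.7%. *Irgm1* gave 24.6% and 25.1%, and *Igtp* 22.7% and 21.3%. The summed regulatory members went from 23.6 CPM in Ctrl to 299 in LP4, a log2 ratio of 3.66 (3.56 to 3.76). The summed effectors went from 19.9 to 128 CPM, a log2 ratio of 2.68 (2.57 to 2.80), below that of the regulators. Summed without *Ifi47*, the effectors had a log2 ratio of 3.72 (3.48 to 3.97), which overlaps that of the regulators.

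Of 8 other rows of the IRG family, 5 were at least 2-fold higher in LP4 than in Ctrl, beside 11.6% of all genes compared. Their median log2 ratio was 1.67. *Gm4951* had 3.78 CPM in Ctrl, 3.39 at 1 hour and 118 at 4 hours and a log2 ratio of 4.96 (4.72 to 5.22), a level in LP4 above that of any of the 7 members. *9930111J21Rik2* was at 24.4, 26.5 and 74.5 CPM, *Gm5431* at 9.22, 9.19 and 33.8, and *Gm12185* at 5.55, 5.89 and 19.4. As *Gm12185* overlaps *Tgtp1* and shares words of 90 bases with *Tgtp1* and *Tgtp2*, its counts may not be independent of theirs. None of these shared words lay in the last 500 bases of that pair. *Irgq*, a distant relative, was at 11.3, 8.92 and 11.5 CPM with a log2 ratio of 0.02 (-0.16 to 0.20).

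Most genes of the interferons, the ligands that induce IRGs, had few or no UMIs. Of 15 interferon genes, 12 had 0 UMIs in every library. By the floor of 3 counts this allows up to 0.0841, 0.0572 and 0.0489 CPM for Ctrl, LP1 and LP4. These limits hold only for reads that can be assigned to 1 gene. Sequence shared between the interferon genes was not checked, so the limits may be too low. *Ifng*, encoding interferon-γ, had 0, 1 and 1 UMIs. *Ifnb1*, encoding interferon-β, had 2, 10 and 96 UMIs, or 0.0560, 0.191 and 1.56 CPM, with a log2 ratio of 4.80 (2.91 to 7.87) in LP4 over Ctrl. *Ifnk* had 64, 82 and 136 UMIs and a log2 ratio of 0.30 (-0.13 to 0.76). T and NK cells are the usual source of interferon-γ, and their 9 markers summed to 0.224, 0.248 and 0.147 CPM, with *Cd3e*, *Ncr1* and *Gzma* at 0 in all 3 libraries. Interferon protein was not measured in these libraries, and whether an interferon acted on the IRGs was not tested.

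Receptors and kinases of the interferon pathway stayed closer to their Ctrl levels than the IRGs. Of 7, 1 was at least 2-fold higher in LP4 than in Ctrl, beside 11.6% of all genes compared, so this count does not set them apart. It was *Jak2*, with 117 CPM in Ctrl, 126 at 1 hour and 470 at 4 hours. *Ifnar2* was at 392, 369 and 528 CPM, and *Ifnar1* at 197, 167 and 290, the chains that bind type I interferon. Of the chains of the interferon-γ receptor, *Ifngr2* was at 91.7, 98.2 and 163 CPM, while *Ifngr1* was at 78.4, 87.1 and 50.9, with a log2 ratio of -0.62 (-0.70 to -0.55). The kinase gene *Tyk2* lay at the limit, at a log2 ratio of 1.00 (0.86 to 1.13). The median log2 ratio of the 7 was 0.55. *Stat2*, encoding a transcription factor of type I interferon signalling, was at 29.1, 24.0 and 256 CPM, with a log2 ratio of 3.14 (3.05 to 3.23). *Irf1*, an early factor known to act at IRG promoters, was at 181, 159 and 205 CPM, a log2 ratio of 0.18 (0.14 to 0.22). All 3 genes of negative feedback were at least 2-fold higher in LP4 than in Ctrl. Among them *Socs1*, at 1.68, 3.85 and 90.7 CPM, was also the one at least 2-fold higher at 1 hour, beside 1.45% of all genes compared. Its log2 ratio at 1 hour was 1.20 (0.77 to 1.64). *Socs3* was at 52.3, 98.9 and 648 CPM, and *Usp18*, which blocks the type I interferon receptor, at 18.0, 16.4 and 189.

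Guanylate-binding proteins (GBPs) are the other family of interferon-induced GTPases that target vacuoles. All 10 were at least 2-fold higher in LP4 than in Ctrl, beside 11.6% of all genes compared, with a median log2 ratio of 3.22. *Gbp5* was at 26.0, 20.9 and 961 CPM, *Gbp2* at 28.6, 22.4 and 294, and *Gbp2b* at 18.9, 17.5 and 268. All 8 type I interferon-stimulated genes were higher too, with a median of 4.02. *Rsad2* was at 130, 107 and 4995 CPM, and *Ifit1* at 39.4, 32.0 and 1998. At 1 hour 0 genes of either list were at least 2-fold higher, beside 1.45% of all genes compared. Medians were -0.36 for the GBPs and -0.32 for the interferon-stimulated genes.

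Genes whose products act with IRGs at vacuoles were followed in 2 lists. Proteins of the ATG8 conjugation system are needed for the effectors to reach the vacuole. Of 11 such genes, 0 were at least 2-fold higher in LP4 than in Ctrl and 1 was at least 2-fold lower, beside 11.6% and 15.6% of all genes compared, with a median log2 ratio of -0.27. That gene was *Atg7*, encoding the E1-like enzyme of the conjugation, at 121, 106 and 49.7 CPM. *Gabarap* was at 822, 786 and 657 CPM, and *Map1lc3b* at 208, 205 and 173. Of 8 ubiquitin ligases and adaptors linked to pathogen vacuoles, 2 were at least 2-fold higher, both ubiquitin ligases, and 0 were at least 2-fold lower. Beside the same 11.6% and 15.6% of all genes compared, counts this small do not set the list apart. *Rnf213* was at 141, 122 and 1184 CPM, a log2 ratio of 3.07, and *Trim21* at 3.87, 3.74 and 31.8 CPM, a log2 ratio of 3.04, both within the range of the IRGs. Among the adaptors, *Tax1bp1* was at 284, 271 and 532 CPM, with a log2 ratio of 0.90 (0.87 to 0.94), *Sqstm1* at 554, 450 and 489, and *Optn* at 53.4, 49.4 and 31.6, with a log2 ratio of -0.76 (-0.85 to -0.67).

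**Figure D3:**
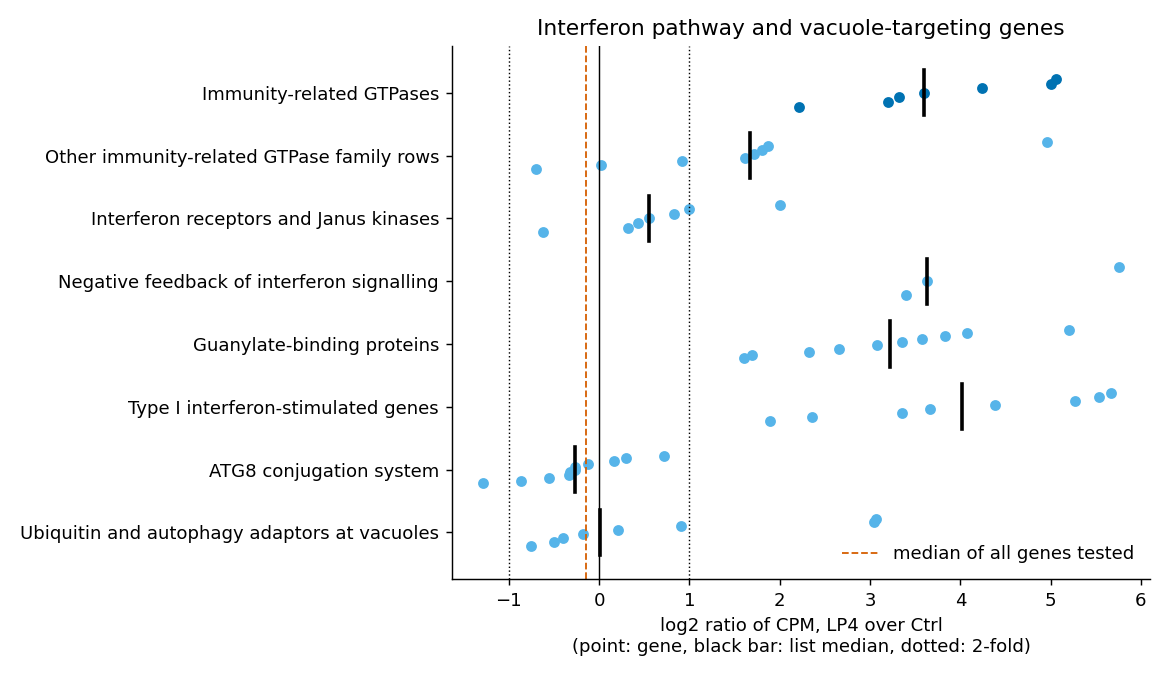
Log2 ratio of CPM in LP4 over Ctrl (horizontal axis) for each gene with at least 20 UMIs in the pair, by gene list, with black bars at list medians and a dashed line at the median of all genes tested. IRGs (median 3.60), GBPs (3.22) and interferon-stimulated genes (4.02) lie to the right, and the ATG8 conjugation system (-0.27) lies around 0.

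Between cells, the family was thinly spread. Depth per cell differed, with median UMIs of 5133 for Ctrl, 9343 for LP1 and 11784 for LP4, so each cell was thinned to 2000 UMIs before shares of cells were taken, and 122, 13 and 45 shallower cells were left out. A UMI of any member was then found in 7.38% of 5949 cells from Ctrl (exact binomial 95% interval 6.73 to 8.07), in 6.25% of 5052 from LP1 (5.60 to 6.96) and in 53.5% of 4625 from LP4 (52.1 to 54.96). Without thinning the shares were 17.4%, 24.1% and 94.03%. RNA set free into the droplets can give such UMIs too. Neutrophil-like cells had a median of 9262 UMIs in LP4 before thinning. Among them a UMI of a member was found in 1 of 21 in Ctrl (4.76%, 0.120 to 23.8), 1 of 21 in LP1 and 4 of 28 in LP4 (14.3%, 4.03 to 32.7). Without thinning it was found in 2 of 32, 1 of 25 and 12 of 28 (42.9%). Whether these UMIs were free RNA or RNA of the neutrophil-like cells was not tested.

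At 2000 UMIs, 2.00% of cells had *Irgm1* in Ctrl, 1.82% at 1 hour and 18.8% at 4 hours. *Irgm2* was found in 0.723%, 0.831% and 18.7%, and *Igtp* in 1.88%, 1.64% and 16.0%. *Ifi47* was found in 3.04%, 2.34% and 13.8%, and *Iigp1* in 0.538%, 0.554% and 5.86%. *Tgtp2* was found in 0.101%, 0.0396% and 2.14%, and *Tgtp1* in 0 of 5949, 0 of 5052 and 7 of 4625 cells. For comparison, *Ifit1* was found in 86.4% of LP4 cells and *Gbp5* in 74.5%. Few cells held several members at this depth: 17.9% of LP4 cells held at least 2 and 3.63% at least 3.

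*Iigp1* was spread over cells unlike the other members. The variance of its UMIs per thinned cell was 2.37 times the mean in Ctrl, 2.32 times in LP1 and 2.09 times in LP4, where counts scattered by sampling alone have a ratio of 1. The other 4 well-detected members, *Irgm1*, *Irgm2*, *Igtp* and *Ifi47*, had ratios of 1.06 to 1.11 in LP4 and of 0.993 to 1.15 in Ctrl, and *Ifi47* reached 1.497 in LP1. In LP4 *Iigp1* and *Irgm2* were at 43.0 and 101 CPM, but without thinning *Iigp1* UMIs came from 877 of 4670 cells and *Irgm2* UMIs from 3062. A cell with *Iigp1* held a mean of 3.01 UMIs of it and at most 35, against 2.03 and at most 10 for *Irgm2*. The 47 cells with the most UMIs of a gene, 1% of LP4 cells, held 27.7% of the UMIs of *Iigp1* and 5.33% to 6.56% of those of the other 4. In Ctrl all 127 *Iigp1* UMIs came from 62 cells, with up to 11 in a cell.

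**Figure D4:**
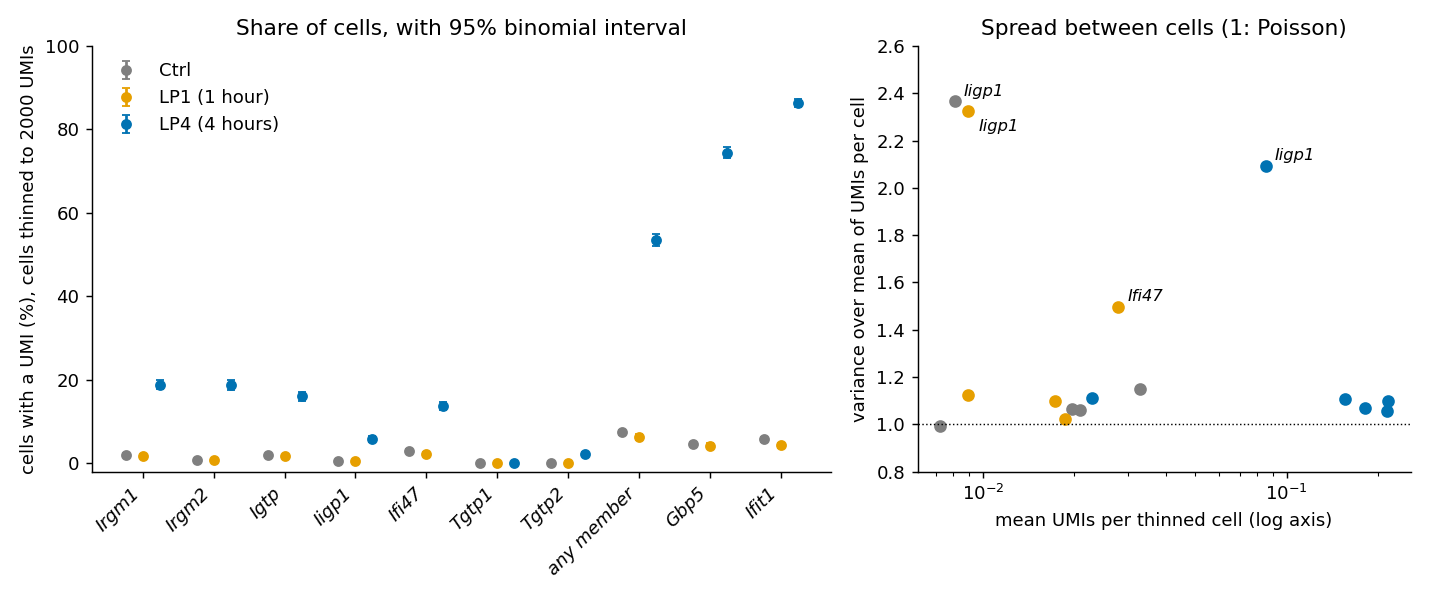
Left, share of cells with a UMI of each member, of any member, and of *Gbp5* and *Ifit1*, after thinning each cell to 2000 UMIs, with exact binomial 95% intervals for Ctrl, LP1 and LP4. Right, variance over mean of UMIs per thinned cell against the mean (logarithmic axis) for members with a mean of at least 0.005, where *Iigp1* lies at 2.09 to 2.37 and most others lie near 1.

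IRG transcripts were found more often in cells that also held *Ifit1*, and the contrast was widest without treatment and at 1 hour. In Ctrl, 30.9% of 343 thinned cells with an *Ifit1* UMI had a UMI of a member (26.1 to 36.1), against 5.94% of 5606 cells without one (5.34 to 6.59). In LP1 the shares were 36.7% (30.3 to 43.5) and 4.88% (4.29 to 5.53). In LP4 they were 56.4% (54.8 to 57.9) and 35.5% (31.8 to 39.4). Seen from the members, 22 of the 32 Ctrl cells with an *Iigp1* UMI also had *Ifit1* (68.8%, 49.99 to 83.9), against 5.43% of Ctrl cells without *Iigp1*. For *Irgm1* the share was 27.7% (19.9 to 36.7) and for *Igtp* 19.6% (12.7 to 28.2). These are cells of 1 library and describe that library.

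Over the 4670 LP4 cells, the genes most like the family were ranked by Pearson's r between their log-scaled counts per 10000 and those of the summed members, among 6016 other genes with at least 1000 UMIs. The first 10 were *Ifit1* (r = 0.49), *Rsad2* (0.45), *Cmpk2* (0.43), *Ifit2* (0.41), *Gbp2b* (0.40), *Parp14* (0.40), *Gbp5* (0.40), *Ifi203* (0.39), *Gbp2* (0.39) and *Cxcl10* (0.37), where the median gene had r = -0.02. The summed members had r = 0.01 with UMIs per cell and -0.02 with the mitochondrial share. In the 6071 Ctrl cells the leading genes were *Rsad2* (0.41), *Ifit3* (0.40) and *Ifit1* (0.39). Counts of a cell share that cell's capture and depth, and r values of genes with few UMIs are held low by sampling. Between members r was weak in LP4, at 0.17 for *Irgm1* with *Igtp* and 0.14 for *Irgm2* with *Igtp*, the overlapping neighbours. Of LP4 cells with *Irgm1*, 20.1% also had *Irgm2*, beside 18.7% of all cells. Among pairs without *Tgtp1* and *Tgtp2*, cells holding both were 1.07 times the number expected if independent for this pair, the lowest. The highest was 1.33 times, for *Irgm1* with *Ifi47*.

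Cells were grouped into clusters on genes that differed little between libraries, without the members, and 5 clusters had at least 50 cells in every library. Clusters A, B and C were macrophage-like, D was cycling-like and E dendritic-like by their markers. The first 10 genes of E held 6 dendritic markers: *H2-Eb1*, *H2-Aa*, *H2-Ab1*, *Cd74*, *Ccl22* and *H2-DMb1*. Of the macrophage markers, 7 were widely found in E, as in C, so the name of E is not certain. The summed members were at least 2-fold higher in LP4 than in Ctrl in 5 of 5, with log2 ratios of 2.83 (2.72 to 2.95) in B, 3.35 (2.78 to 3.98) in E, 3.49 (3.36 to 3.62) in A, 3.51 (3.21 to 3.84) in D and 3.61 (3.44 to 3.78) in C. The level in LP4 was lowest in the cycling-like cells, at 286 CPM (272 to 302), and highest in the dendritic-like cells, at 606 (555 to 660), with 553 (542 to 565) in B. At 1 hour the log2 ratios ran from -0.37 (-0.59 to -0.14) in C to 0.34 (-0.38 to 1.09) in E.

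Cluster B, whose leading genes included *Egr3*, *Nr4a3*, *Apoe* and *Cd86*, had the smallest ratio and the highest macrophage-like level without treatment. The summed members were at 77.8 CPM (71.99 to 84.0) in its Ctrl cells, against 35.0 (31.9 to 38.3) in A and 32.3 (28.7 to 36.1) in C. It held 33.6% of Ctrl cells, but 69.3% of the *Iigp1* UMIs and 48.6% of the *Ifi47* UMIs of Ctrl. *Iigp1* was at 10.4 CPM (8.36 to 12.8) in Ctrl cells of B, 1.54 (0.955 to 2.36) in A and 1.08 (0.517 to 1.98) in C. In LP4 it was at 68.1, 40.6 and 22.8 CPM. B was thus above A and C in both libraries, and its log2 ratio of 2.71 (2.39 to 3.04) for *Iigp1* was below 4.72 (4.10 to 5.42) in A and 4.40 (3.51 to 5.48) in C. The cells of B were divided differently in the libraries, however. With a finer clustering (Leiden resolution 0.8), 79.5% of the Ctrl cells of B but 4.55% of its LP4 cells fell in a cluster led by *Egr3*, *Slc9a9* and *Cd86*, and 6.58% and 67.1% fell in another, led by *Gbp4* and *F13a1*. The ratio in B therefore compares mostly different finer clusters. Leading genes were taken from all genes, and *Gbp4* itself was at 1.54 CPM in Ctrl and 25.9 in LP4. Whether these are different cells, or the same kind of cell without and with treatment, was not tested. Within these finer clusters *Iigp1* was at 11.8 CPM (9.36 to 14.7) and 11.1 (4.46 to 22.9) in Ctrl, with log2 ratios of 3.26 (2.78 to 3.73), from 73 cells in LP4, and 2.58 (1.53 to 3.90), from 140 cells in Ctrl. Other interferon-stimulated transcripts stood in the same place, with *Ifit1* at 75.7 CPM in Ctrl cells of B, 26.0 in A and 32.9 in C, and *Gbp5* at 65.9, 13.4 and 11.2. Depth per cell was lower in B, at a median of 6111 UMIs over the libraries against 9572 in A, and its part in these levels was not tested.

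**Figure D5:**
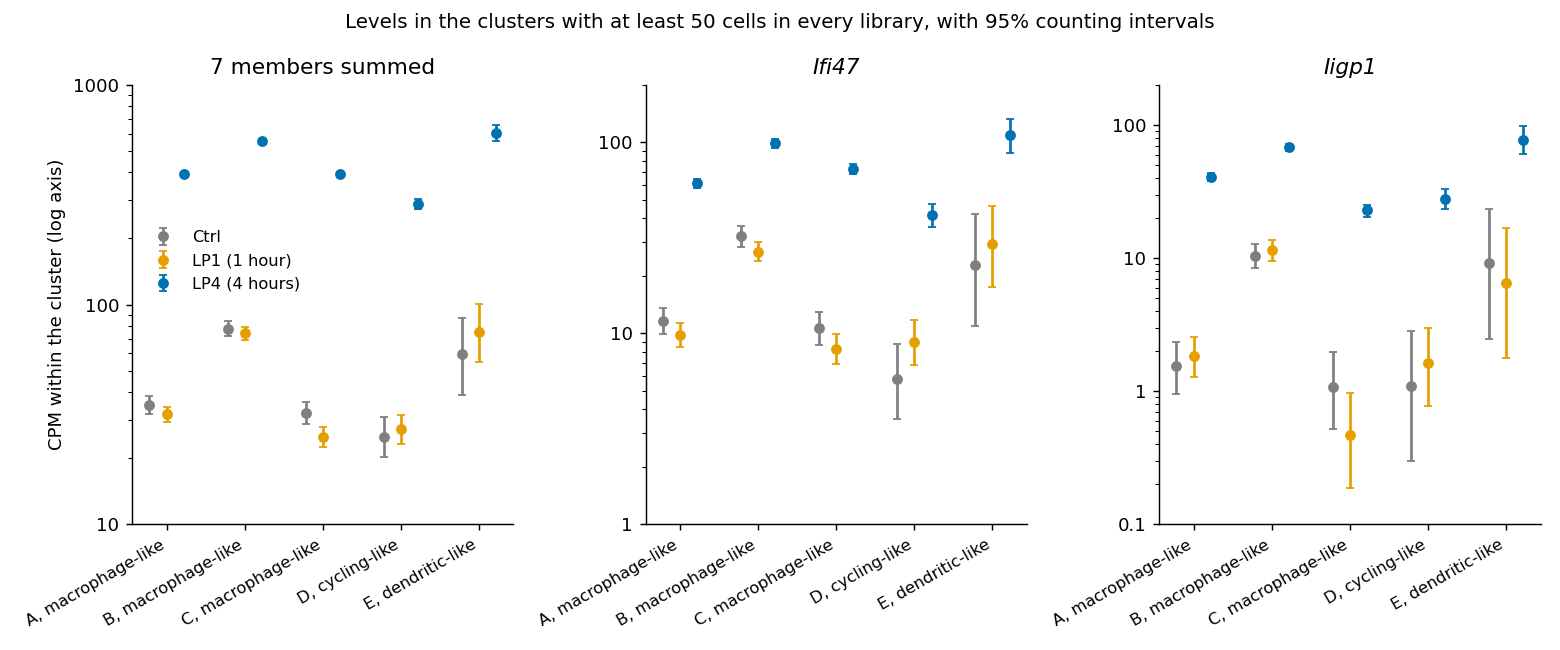
CPM (vertical axis, logarithmic) of the 7 members summed, of *Ifi47* and of *Iigp1* within clusters A to E in Ctrl, LP1 and LP4, with exact Poisson 95% intervals. LP4 is above Ctrl in every cluster, and in Ctrl cluster B lies above A and C in all 3 panels.

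Clusters with fewer cells gave values for description only. Among stromal-like cells, set apart by *Col1a2*, *Col3a1* and *Sparc*, the 21 Ctrl cells had 0 UMIs of the family, the 19 LP1 cells had 10 and the 22 LP4 cells had 157. *Iigp1* made 62 of those 157. Summed stromal markers had 5.46 CPM in Ctrl, 6.46 at 1 hour and 22.0 at 4 hours, and these cells held 2.35% of the *Iigp1* UMIs of LP4. Neutrophil-like cells had 2, 2 and 22 UMIs of the family and 0 of *Iigp1* in every library, in 32, 25 and 28 cells. The 12 macrophage markers were found in every library, and their sum was 20696 CPM for Ctrl, 18974 for LP1 and 16436 for LP4.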

How the data were processed

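Droplet libraries of Ctrl, LP1 and LP4 BMDMs were used as deposited. Per the labels and methods, the authors ran Cell Ranger (version 7.1.0 in the submitters' processing notes) on mm10, the genome of a mouse strain other than C3H/HeN, and deposited UMI counts per gene and barcode, not normalized. Samples were grouped by their treatment labels. Counts of kept cells were summed per library and scaled to CPM, with exact 95% intervals from Poisson (levels), conditional binomial (ratios) and binomial (shares) distributions. The floor for a count of 0 was 3 counts. With 1 library per condition no test was run, and a 2-fold ratio served as the limit. Depth was 35749924 to 64787139 UMIs per library. PCR copies were collapsed by UMI.

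The 7 members and the lists were chosen with earlier results of these data known. All members are named. Of each other list, at most the 4 genes with the highest CPM in LP4 and those with up to 3 UMIs are named by rule, and *Irgq*, *Ifngr1*, *Ifngr2*, *Tyk2*, *Atg7*, *Trim21* and *Optn* were named after their values were seen.

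For clustering, 2000 variable genes, each with at least 200 UMIs and differing by less than 1.5 times between libraries, were centred within libraries, and Leiden clusters (resolution 0.5) were found from 30 principal components and 20 neighbours. Clusters were named from at least 3 markers. Cells were thinned once to 2000 UMIs with seed 20. Doublets were not removed, and an alternative left out the 5% of cells with the highest Scrublet scores. Motifs were searched in RefSeq promoters of GRCm38.p6, and 90-base words were compared over GENCODE vM21 transcripts. Ratio and interval functions were tested on simulated data. Clustering used scanpy 1.11.5 with leidenalg 0.10.2, intervals used scipy 1.17.1 under Python 3.11.15, and TMM factors came from edgeR 4.0.16 in R 4.3.3. *Gm12250* was not analysed here, and the counts of a list of transcription factors are not reported here.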

Additional observations from a re-analysis of the deposited data

Results flagged for a closer look

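The barcodes that the mitochondrial limit set aside also carried the family. In LP4, 339 barcodes at or over 5% mitochondrial UMIs held 1099 UMIs of the members, or 326 CPM (exact Poisson 95% interval 307 to 346), above the 43.5 CPM of kept Ctrl cells and below the 427 CPM of kept LP4 cells. A member was found in 253 of the 339. The 51 such barcodes of LP1 held 10 UMIs, or 33.8 CPM (16.2 to 62.1), and the 22 of Ctrl held 0 of 40141 UMIs, which allows up to 74.7 CPM by the floor of 3 counts. These barcodes are left out of the values given above and enter only the alternatives that keep all deposited barcodes or set the mitochondrial limit at 10%.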

How the results depend on the processing

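In each alternative run, 7 of 7 members were at least 2-fold higher in LP4 against either other library, or 6 of 6 where *Tgtp1* fell under a minimum of 200 UMIs or was summed with *Tgtp2*, and the members' log2 ratios ran from 2.05 to 5.23 over Ctrl and from 2.35 to 5.49 over LP1. At 1 hour no member reached 2-fold higher. Scaling by TMM moved the median log2 ratio of all genes by 0.17 and by median of ratios by 0.15 in LP4 over Ctrl, and by 0.12 for the latter in LP4 over LP1, with members moving by the same amounts. In macrophage-like and cycling-like clusters only, the members' median log2 ratio in LP4 over Ctrl was 3.32 in place of 3.60, since *Tgtp1* had 0 UMIs in Ctrl there and entered at its bound of 3.28. The number of receptors and kinases at least 2-fold higher in LP4 than in Ctrl was 2 in place of 1 in 6 of the alternatives, where *Tyk2* crossed the limit.

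Shares of cells with a UMI of any member followed depth. In Ctrl, LP1 and LP4 they were 4.36%, 3.71% and 33.8% thinned to 1000 UMIs, 14.6%, 14.6% and 82.3% thinned to 5000, and 17.4%, 24.1% and 94.03% not thinned, so that Ctrl against LP1 changed order without thinning. With a Leiden resolution of 0.8, the summed members were at least 2-fold higher in 9 of 9 compared clusters, though cells of cluster B were divided differently in Ctrl and LP4. Leaving out barcodes that libraries share was chosen after seeing the data. No paired analysis was possible because each group has 1 library and no test was run, and no library could be left out for the same reason. Spread between cultures was not measured, and *Tgtp1* and *Tgtp2* are limited by shared sequence.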
